A study of Mus musculus with 21 samples.

Results

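Tuft cells are rare chemosensory cells of epithelia, and 10 transcription factor genes linked to their lineage or to neighbouring epithelial lineages were followed here: Pou2f3, Gfi1b, Gfi1, Spib, Hmx2, Hmx3, Glis1, Sox9, Atoh1 and Ascl2. They were chosen by name, as 10 of the 43432 gene identifiers in the count tables. Earlier results of these data were known at that choice, so contrasts of the set with all genes are descriptive. All 10 passed the filter on low counts in the fit of all 21 libraries, which tested 20335 genes. The libraries were made from poly(A) RNA of naive mice of the strain C57BL6.Il25(Flare25/Flare25), in which a Flare25 reporter is tied to Il25, the gene of a tuft cell cytokine, and the question was how tuft cells compare between organs. Live CD45-negative, EPCAM-positive epithelial cells were sorted by that reporter. Flare25-positive tuft cells came from small intestine (3 libraries, numbered 2, 3 and 4), colon (4 libraries), gall bladder (3 libraries, numbered 1, 3 and 4), thymus (4 libraries) and trachea (4 libraries). Flare25-negative epithelium of the small intestine (3 libraries), called non-tuft cells below, is the single reference. Gut, gall bladder and thymus libraries each came from 1 male mouse of 12 weeks. Each trachea library pooled 4 mice, of 12, 16, 16 and 14 weeks for pools 1 to 4, and pools 3 and 4 were female. Values of each library are given in the order of these numbers.

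Pou2f3 is the factor without which mice form no tuft cells, and it works with small coactivator proteins that bind its DNA-contacting domain. In the intestine, release from Notch signalling lets progenitors switch on Atoh1, which opens the goblet, Paneth and enteroendocrine fates, and Gfi1 acts below it in that branch. Sox9 and Ascl2 belong to the crypt base, where Ascl2 marks stem cells and Sox9 is also present in Paneth cells.

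Library totals ran between 25739248 and 73574745 counts, and no molecular identifiers were used, so floors below cover counting error only. Cells sorted per library ranged over 130 to 453 for trachea, 1350 to 1900 for thymus, 1750 to 2700 for gall bladder, 13500 to 16000 for colon, 35000 to 36000 for small intestine tuft cells and 52000 to 57000 for non-tuft cells. The share of counts from mitochondrial genes was 24.1% to 33.5% in small intestine tuft, 17.7% to 23% in colon, 14.8% to 17% in gall bladder, 4.38% to 5.97% in thymus and 5.57% to 10.1% in trachea, against 18.6% to 23.7% in non-tuft libraries. The part of cell number and of this share in the results was not tested. The tuft label was checked with 10 markers, among them Trpm5, Dclk1 and Avil, and all 10 were higher than in non-tuft cells in each of the 5 tissues. Their summed level was 24100 to 33000 CPM (read counts scaled to a common library size) in small intestine tuft libraries, 5300 to 7040 in colon, 21000 to 22800 in gall bladder, 6180 to 7250 in thymus and 11200 to 21800 in trachea, against 213 to 437 CPM in non-tuft libraries. Markers of other cell types were counted as well, and their source was not tested. Enterocyte markers summed to 19600 to 25100 CPM in small intestine tuft libraries, against 10300 to 11600 in non-tuft libraries, and airway markers to 10200 to 62700 CPM in trachea and 754 to 986 CPM in thymus tuft libraries, against 4.43 to 6.3 in non-tuft libraries. In thymus tuft libraries, 4 medullary thymic epithelium markers summed to 1090 to 1280 CPM, against 5.17 to 7.52 in non-tuft libraries, and all 4 were higher. Krt5 is in both the airway and the medullary list, so these sums are not independent. Because these are bulk samples, fewer cells of a type and less RNA per cell cannot be told apart. Levels are CPM scaled by TMM (trimmed mean of M values), which corrects library size for composition. The p-values set group differences against the spread between these libraries, each of a single mouse or, for trachea, of a pool.

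Against non-tuft cells, Pou2f3, Gfi1b, Spib, Hmx2, Hmx3 and Sox9 were higher in tuft cells of all 5 tissues. Glis1 was higher in small intestine, colon and gall bladder tuft cells and was not called in thymus or trachea. Atoh1 and Gfi1 were lower in small intestine, gall bladder, thymus and trachea tuft cells, and neither was called in colon. Ascl2 was called lower in small intestine tuft cells and was not called in the other 4 tissues.

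A call required an adjusted p under 0.05 and a change of at least 2-fold, by edgeR's quasi-likelihood test with Benjamini-Hochberg adjustment over all genes. In small intestine tuft cells 7 factors were higher and 3 lower, where 26.9% of the 16063 genes tested were called, 13% higher and 13.9% lower. That comparison was fitted on its own 6 libraries and the other 4 on all 21, so their counts are not alike. In the fit of all 21 libraries, 1324 genes were called in small intestine. The factors Gfi1 (adjusted p = 0.148) and Ascl2 (adjusted p = 0.368) were not called there in that fit. In colon 7 were higher and 0 lower, where 7.67% of 20335 genes were called, 4.4% higher and 3.27% lower. In colon Atoh1 and Ascl2, both below non-tuft cells, had an unadjusted p under 0.05, and DESeq2 called 1 factor lower there and limma voom 3. In gall bladder 7 were higher and 2 lower, against 26% of genes called, 12.4% higher and 13.5% lower. In thymus 6 were higher and 2 lower, against 27.5% of genes called, 17.2% higher and 10.3% lower. In trachea 6 were higher and 2 lower, against 31.2% of genes called, 14% higher and 17.2% lower. The median log2 fold change of the 10 factors was 5.66 in small intestine, 3.54 in colon, 5.39 in gall bladder, 2.83 in thymus and 2.75 in trachea, while the median of all genes tested lay between -0.21 and 0.22. All 5 comparisons share the 3 non-tuft libraries, and outside the small intestine organ and cell type cannot be told apart.

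Among the 5 tuft groups, all 10 factors differed in the F test of any difference over the 18 tuft libraries, where 56.7% of 19850 genes did. Of 100 tests of a factor in a pair of tissues, 44 were called, against 23% of such tests over all genes. The share of genes called was 8.36% for colon over small intestine, 14.8% for gall bladder over small intestine, 25.7% for thymus over small intestine and 27.8% for trachea over small intestine. It was 18.2% for gall bladder over colon, 25.6% for thymus over colon, 27.1% for trachea over colon, 30.6% for thymus over gall bladder, 23.8% for trachea over gall bladder and 27.9% for trachea over thymus. Gfi1b had 7 pairs called of 10, Gfi1 and Glis1 had 6, Pou2f3 had 5, Spib, Hmx2, Hmx3 and Atoh1 had 4, Ascl2 had 3 and Sox9 had 1. The highest tuft group mean was 2.6 times the lowest for Sox9, 4.76 times for Hmx3, 5.73 times for Pou2f3, 155 times for Atoh1 and 206 times for Glis1.

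**Figure D1:**
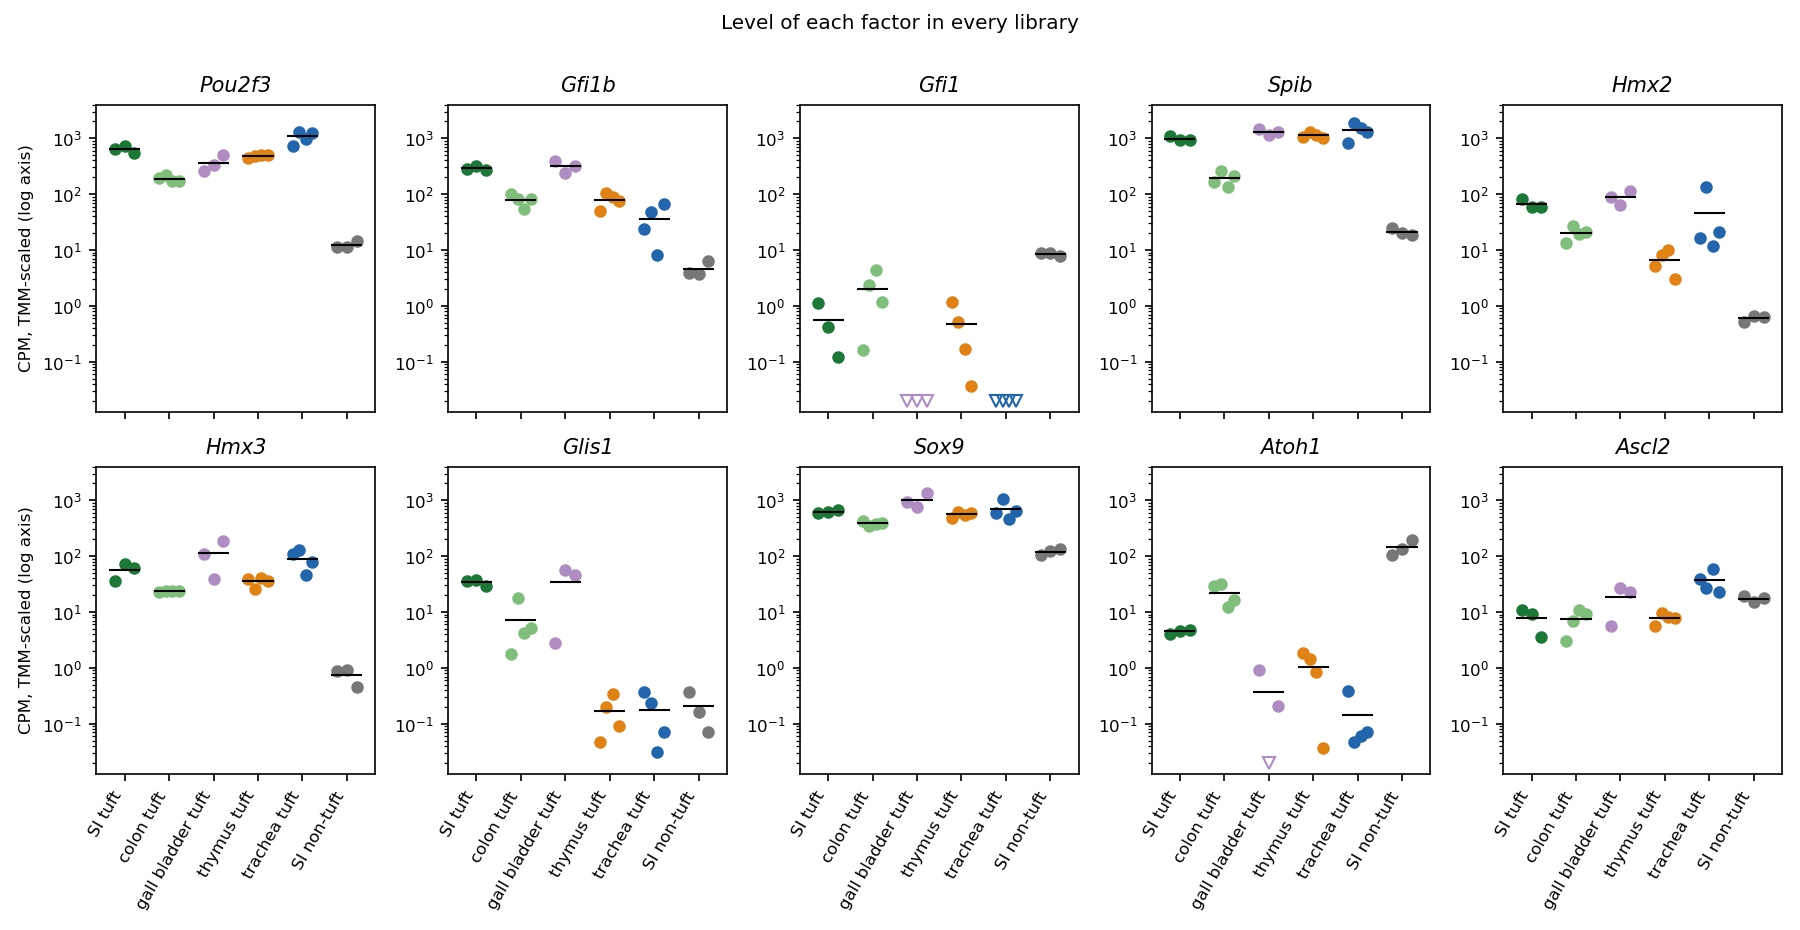
Level of each factor in each of the 21 libraries, in TMM-scaled CPM on a log axis, with 1 point per library, a bar at the group mean and open triangles at the bottom for libraries with 0 counts. Pou2f3, Gfi1b, Spib, Hmx2, Hmx3 and Sox9 lie above the 3 non-tuft libraries in each tuft library, and Atoh1 and Gfi1 lie below them in each tuft library.

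**Figure D2:**
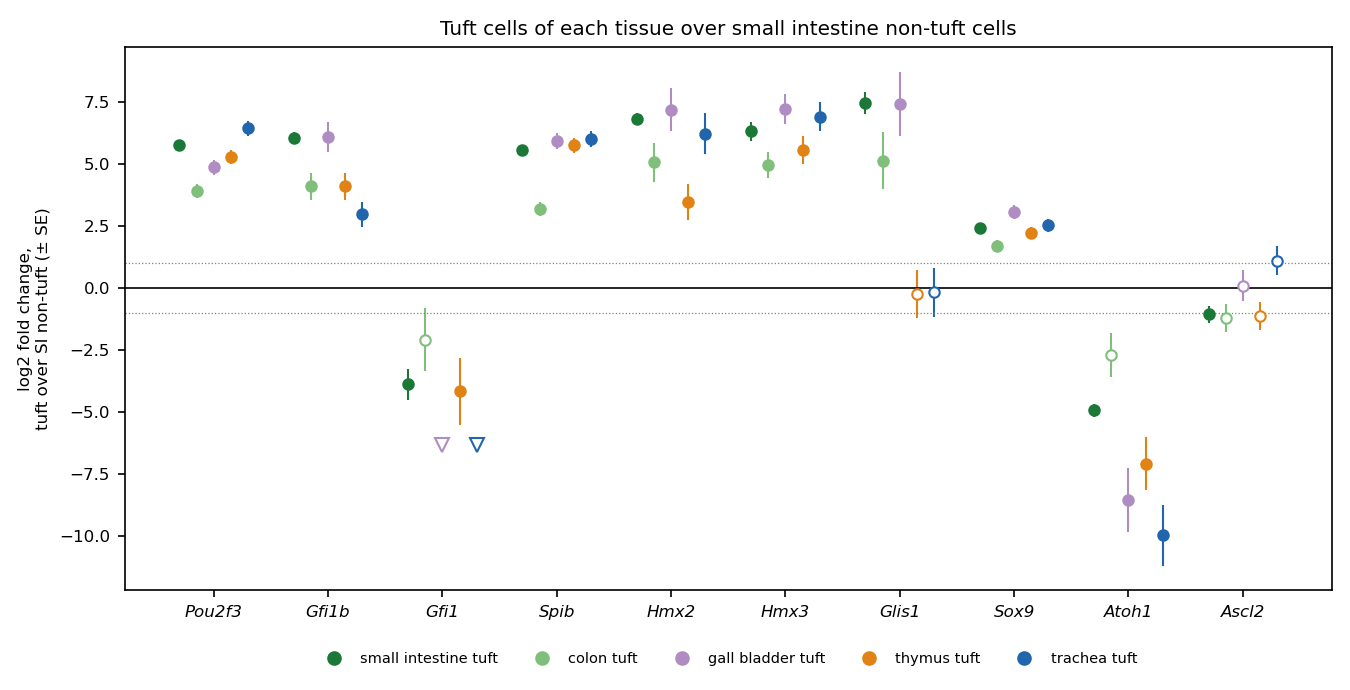
Log2 fold change of each factor, tuft cells of each tissue over small intestine non-tuft cells, with bars of 1 SE. Filled points were called, open circles were not, dotted lines mark 2-fold, and open triangles mark the bound for Gfi1 in gall bladder and trachea, which had 0 counts.

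Pou2f3 (ENSMUSG00000032015, GRCm38 chr9:43123939-43210369, minus strand) was abundant in all tuft groups. Trachea tuft libraries had 738, 1315, 982 and 1266 CPM. Small intestine tuft libraries had 639.5, 735 and 548 CPM, and thymus tuft libraries had 435, 488, 504 and 496 CPM. The trachea libraries lay above those of the other two tissues. Gall bladder tuft libraries had 262, 330.4 and 494 CPM, and colon tuft libraries were lowest at 192, 216, 175 and 168 CPM. Non-tuft libraries had 11.4, 11.3 and 14.7 CPM, far below each tuft library. The log2 fold change over non-tuft cells was 5.75 ± 0.19 (SE) in small intestine, 3.91 ± 0.27 in colon, 4.86 ± 0.29 in gall bladder, 5.27 ± 0.29 in thymus and 6.43 ± 0.31 in trachea, each called, with the largest adjusted p 3.03e-08. Tuft markers were present in non-tuft libraries beside this low Pou2f3 level, and their part in it was not tested.

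Among tuft tissues, colon and trachea stood at the ends of the Pou2f3 range. Trachea over colon was 2.56 ± 0.23 on the log2 scale, trachea over gall bladder 1.60 ± 0.25 and trachea over thymus 1.06 ± 0.22, each called. The difference from thymus was 0.97, under the 2-fold limit, with size factors by relative log expression (RLE), and 0.98 and 0.92 without trachea library 2 or 4. Colon over small intestine was -1.79 ± 0.24 and thymus over colon 1.50 ± 0.22, both called. Of neighbours in the order, trachea over small intestine was 0.77 ± 0.24 (adjusted p = 0.0221) and gall bladder over colon 0.96 ± 0.23 (adjusted p = 0.00741), both under the fold limit although their libraries did not overlap. Thymus and gall bladder libraries overlapped, and their difference was not called (adjusted p = 0.0851).

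Coactivators of POU2 factors moved unevenly beside Pou2f3. Of 5 relatives and coactivators, 2 rose in small intestine tuft cells, 1 in colon, 4 in gall bladder, 3 in thymus and 3 in trachea, while 1 fell in colon and 1 in trachea. Calls over all genes were 26.9% in small intestine, 7.67% in colon, 26% in gall bladder, 27.5% in thymus and 31.2% in trachea. 1810046K07Rik and Colca2 are the mouse counterparts of 2 human coactivators of POU2F3. 1810046K07Rik rose in all 5 tissues, with a log2 fold change of 5.14 ± 0.18 in small intestine, 3.09 ± 0.34 in colon, 5.07 ± 0.38 in gall bladder, 4.79 ± 0.37 in thymus and 5.43 ± 0.38 in trachea. Its mean level was 636 CPM in trachea, 497 in small intestine, 493 in gall bladder, 408 in thymus and 125 in colon tuft cells, against 14.7 CPM in non-tuft cells. It was thus lowest in colon among tuft cells, as Pou2f3 was. Summed tuft markers were also low in colon, at 5300 to 7040 CPM, against 24100 to 33000 in small intestine tuft libraries. In thymus tuft libraries these markers were at 6180 to 7250 CPM. Their part in the colon levels of this gene and of the factors was not tested.

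Colca2 split by tissue. It rose with a log2 fold change of 3.37 ± 0.40 in trachea, 2.15 ± 0.39 in gall bladder, 2.01 ± 0.38 in thymus and 1.04 ± 0.17 in small intestine, and in colon it fell by 1.26 ± 0.35 (adjusted p = 0.027). Without non-tuft library 1 or small intestine tuft library 2 the small intestine count of the list was 1, and without any single non-tuft library or colon library 1, 2 or 4 the colon count was 1, the Colca2 call being lost in each. Pou2af1, the B cell coactivator, rose in gall bladder (mean 42.9 CPM) and thymus (32.5 CPM) and fell in trachea (0.254 CPM), against 1.86 CPM in non-tuft cells. Pou2f1, the ubiquitous relative, rose by 1.58 ± 0.43 in gall bladder and 1.41 ± 0.41 in trachea on the log2 scale. Without the 2 female pools, 2 rather than 4 genes of the list were called in trachea. Pou2f2, the lymphoid relative, was not called by edgeR in any of the 5 tissues and averaged at most 1.7 CPM in a tuft group. In thymus, DESeq2 and limma voom called all 5 genes of the list, Pou2f1 and Pou2f2 included.

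Gfi1b and Gfi1 encode related zinc finger repressors of blood development, and the pair showed opposite patterns. Their RefSeq promoters (GRCm38.p6, 250 bases before to 50 after the start) are shown because one gene was high where the other was at or near 0. Gfi1b lies at chr2:28609450-28621982 and Gfi1 at chr5:107716657-107726036, both on the minus strand. The windows are chr2:28621933-28622232 and, for the second of the Gfi1 starts listed, chr5:107725756-107726055, read from the minus strand. Capitals mark AAATCA, the core letters of the site that GFI1 proteins bind, searched on both strands.
Gfi1b: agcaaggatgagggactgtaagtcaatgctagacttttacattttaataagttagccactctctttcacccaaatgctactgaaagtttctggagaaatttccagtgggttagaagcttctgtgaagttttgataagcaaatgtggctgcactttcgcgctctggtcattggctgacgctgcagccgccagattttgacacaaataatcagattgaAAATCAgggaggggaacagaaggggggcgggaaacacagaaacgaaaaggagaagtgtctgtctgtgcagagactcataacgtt
Gfi1: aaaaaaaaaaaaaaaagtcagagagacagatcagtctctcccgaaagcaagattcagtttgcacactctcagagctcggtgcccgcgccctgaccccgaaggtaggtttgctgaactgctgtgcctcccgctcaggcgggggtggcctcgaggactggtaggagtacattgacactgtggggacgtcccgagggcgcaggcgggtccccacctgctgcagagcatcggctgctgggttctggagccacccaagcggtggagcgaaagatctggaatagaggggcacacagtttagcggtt
The Gfi1b window holds these letters 34 bases before the start, and neither listed Gfi1 window holds them. They occur in 14% of the 32851 RefSeq promoters of the same length, and the match is a description of the letters. The octamer ATGCAAAT (1.74% of promoters), the E-box CAGCTG (16.3%) and the ETS core GGAAGT (23.8%), also searched on both strands, were not in the windows of the 8 factors with a promoter entry.

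Gfi1b (ENSMUSG00000026815) was highest in gall bladder tuft libraries, at 392, 235 and 317 CPM, and in small intestine tuft libraries, at 287, 319 and 275 CPM. Thymus tuft libraries had 49.2, 106, 90.7 and 73.9 CPM, and colon tuft libraries had 101, 82.2, 53.6 and 81.3 CPM. Trachea tuft libraries had the lowest mean, with 23.7, 47.3, 8.16 and 67.4 CPM. Non-tuft libraries had 3.93, 3.69 and 6.37 CPM, below each tuft library. The log2 fold change over non-tuft cells was 6.03 ± 0.24 in small intestine, 4.09 ± 0.53 in colon, 6.08 ± 0.60 in gall bladder, 4.09 ± 0.53 in thymus and 2.97 ± 0.51 in trachea, each called, with the largest adjusted p 1.02e-04.

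Gfi1b divided the tuft tissues into a high and a low range. Gall bladder over small intestine was 0.10 ± 0.50 on the log2 scale (adjusted p = 0.946), and thymus over colon was 0.15 ± 0.44 (adjusted p = 0.856), with overlapping libraries in both. Thymus over small intestine was -1.75 ± 0.47 and thymus over gall bladder -1.86 ± 0.47, both called. Trachea over small intestine was -2.96 ± 0.49 and trachea over gall bladder -3.06 ± 0.49, both called. Trachea over colon was -1.06 ± 0.44 (adjusted p = 0.0781) and was not called, with overlapping libraries. It was called without trachea library 4 (adjusted p = 0.0093) or the 2 female pools (adjusted p = 0.0323). Gall bladder over colon was 2.00 ± 0.47, called, and colon over small intestine was -1.90 ± 0.47 (adjusted p = 0.0138), a call lost without small intestine library 3 (adjusted p = 0.0571) or colon library 3 (adjusted p = 0.0509). Trachea over thymus was -1.21 ± 0.44 (adjusted p = 0.0463), a call lost without any one of thymus libraries 2, 3 and 4 or trachea libraries 1, 2 and 3, at adjusted p 0.0551 to 0.142. Megakaryocyte and erythroid markers were near 0 beside these levels, at 0 to 5.97 summed CPM in tuft libraries and 1.84 to 2.41 in non-tuft libraries, and Gata1 had no count in any small intestine, colon, gall bladder or thymus tuft library.

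Gfi1 (ENSMUSG00000029275) ran the other way. Small intestine tuft libraries had 1.13, 0.425 and 0.122 CPM, and thymus tuft libraries had 1.19, 0.515, 0.169 and 0.0373 CPM. Colon tuft libraries were scattered over 0.162, 2.33, 4.46 and 1.19 CPM. No read was counted in the 3 gall bladder and 4 trachea tuft libraries. Non-tuft libraries had 9.03, 9 and 7.94 CPM, above each tuft library. With a floor of 3 counts per library, Gfi1 was at least 80.6-fold lower in gall bladder tuft cells and at least 81.8-fold lower in trachea tuft cells than in non-tuft cells, both called. On the log2 scale, tuft over non-tuft was -3.89 ± 0.62 in small intestine (adjusted p = 7.37e-04), -4.17 ± 1.34 in thymus (adjusted p = 0.0286) and -2.09 ± 1.25 in colon (adjusted p = 0.459, not called). The thymus call was lost without any single non-tuft library and without thymus library 2, 3 or 4, at adjusted p 0.0592 to 0.0744. In 1 fit of all 21 libraries the small intestine difference was -3.95 and was not called (adjusted p = 0.148).

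Between tuft tissues, the 6 calls of Gfi1 were those of gall bladder or trachea, both at 0, with small intestine, colon or thymus. The call of gall bladder with small intestine was lost without small intestine library 2 or 3 or any single gall bladder library, at adjusted p 0.0611 to 0.0914. The call of thymus with gall bladder was lost without any single gall bladder library, at adjusted p 0.0528 to 0.0599. Limma voom made neither call, nor those of trachea with small intestine (adjusted p = 0.064) and trachea with thymus (adjusted p = 0.0853).

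Per kilobase of exon, which corrects for annotated exon length only, Gfi1b stood far above Gfi1 in tuft cells. The ratio of Gfi1b to Gfi1 levels was 443 to 3920 in small intestine tuft libraries, 20.9 to 1090 in colon and 72.2 to 3450 in thymus, against 0.715 to 1.4 in non-tuft libraries. These ratios rest on as few as 2 Gfi1 counts, in thymus library 4. In non-tuft cells the levels were 2.55 ± 0.808 CPM per kb for Gfi1b and 2.72 ± 0.195 for Gfi1 (SD, n = 3), within the spread of the 3 libraries. Tuft markers summed to 237, 213 and 437 CPM in these libraries, and the ratio of 1.4 was in library 3. The part of tuft cells in this Gfi1b level was not tested.

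**Figure D3:**
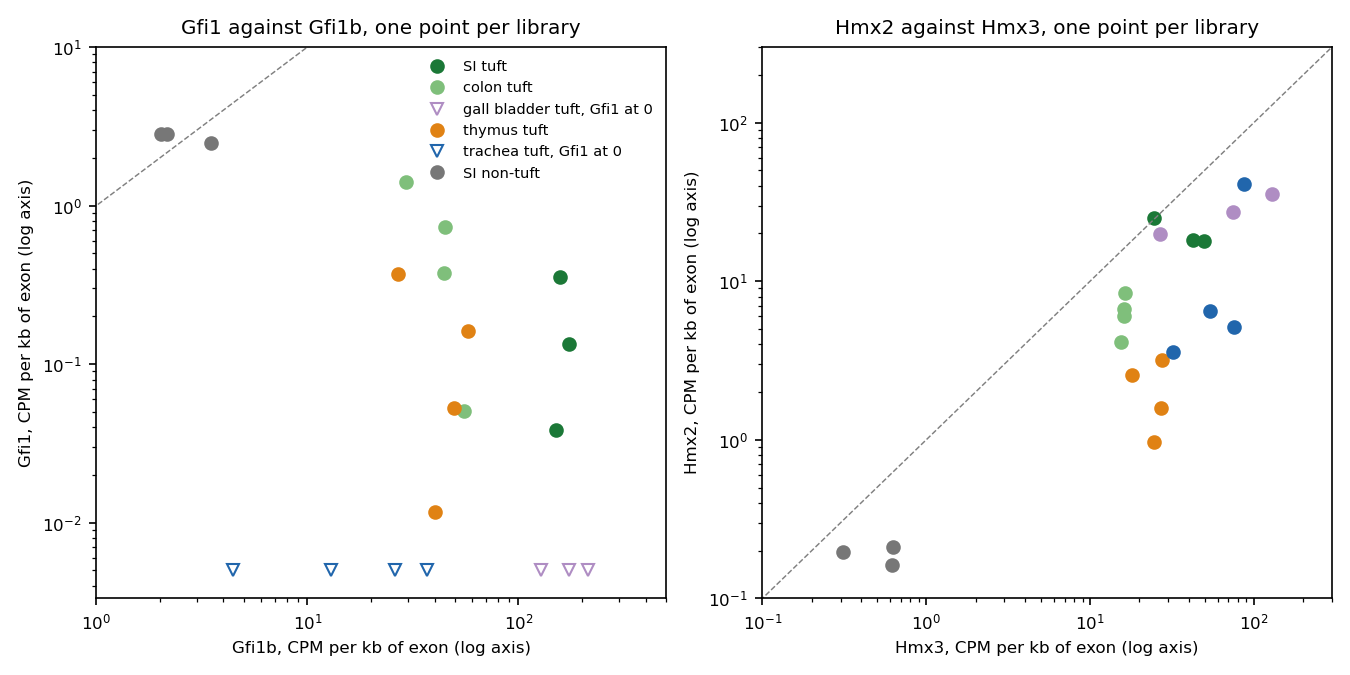
Level per kilobase of exon of Gfi1 against Gfi1b (left) and of Hmx2 against Hmx3 (right), in CPM per kb on log axes, with 1 point per library, open triangles for libraries without a Gfi1 count and a dashed line of equal level. Non-tuft libraries lie near the line for Gfi1 and Gfi1b, with ratios of 0.715 to 1.4, and tuft libraries lie far to the Gfi1b side.

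Among genes of the repressor complex that GFI1 proteins recruit, Hdac1, a histone deacetylase, rose in all 5 tissues, with a log2 fold change of 1.50 ± 0.19 in small intestine, 1.56 ± 0.35 in colon, 2.05 ± 0.37 in gall bladder, 1.11 ± 0.34 in thymus and 1.37 ± 0.35 in trachea. Of the 6 genes listed it was the single one to rise, while 2 fell in gall bladder (Rcor2 and Hdac2) and 1 in trachea (Rcor2). All genes were called at 26.9% in small intestine, 7.67% in colon, 26% in gall bladder, 27.5% in thymus and 31.2% in trachea. The thymus call of Hdac1 was lost without any single non-tuft library or thymus library 2, and the colon call without non-tuft library 3. Kdm1a, the histone demethylase of the complex, had log2 fold changes of -0.13 to 0.72 and was not called in any tissue. The median of the list lay between -0.39 and 0.62 over the 5 comparisons, and 2 of its genes rather than 1 were called in small intestine without tuft library 3 or 4.

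Spib (ENSMUSG00000008193, chr7:44525993-44532071, minus strand) encodes an ETS factor known from B cells, plasmacytoid dendritic cells and M cells. Trachea tuft libraries had 821, 1838, 1534 and 1316 CPM, and gall bladder tuft libraries had 1444, 1123 and 1282 CPM. Thymus tuft libraries had 1052, 1312, 1164 and 1027 CPM, and small intestine tuft libraries had 1075, 927 and 916 CPM. These 4 groups overlapped as neighbours in the order. Colon stood apart at 167, 258, 132 and 209 CPM. Non-tuft libraries had 24.6, 20.4 and 18.7 CPM, below each tuft library. The log2 fold change over non-tuft cells was 5.58 ± 0.18 in small intestine, 3.17 ± 0.28 in colon, 5.92 ± 0.32 in gall bladder, 5.74 ± 0.31 in thymus and 6.02 ± 0.32 in trachea, each called, with the largest adjusted p 7.22e-08.

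The 4 pairs that include colon were called for Spib and the other 6 were not. Trachea over colon was 2.88 ± 0.25, gall bladder over colon 2.77 ± 0.25 and thymus over colon 2.72 ± 0.24 on the log2 scale, and colon over small intestine was -2.36 ± 0.25. Among the other neighbours the log2 differences were 0.12 ± 0.25 for trachea over gall bladder (adjusted p = 0.782) and 0.36 ± 0.25 for thymus over small intestine (adjusted p = 0.324). Per kilobase, Spib had the highest mean of the 10 factors in small intestine (339 ± 31 CPM per kb, SD, n = 3), gall bladder (447 ± 55.9, n = 3), thymus (397 ± 45.3, n = 4) and trachea (480.2 ± 149, n = 4). In colon it was at 66.7 ± 18.9 CPM per kb, beside 94.2 ± 8.38 for Sox9 and 60.8 ± 6.86 for Pou2f3.

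Other cells that express Spib were looked for by their markers. B cell and plasmacytoid dendritic cell markers summed to 0 to 7.75 CPM in tuft libraries, against 0.612 to 1.37 in non-tuft libraries. An M cell list of 5 genes summed to 661 to 798 CPM in thymus, 173 to 230 in gall bladder, 71.3 to 199 in trachea, 18.3 to 31.9 in colon and 5.96 to 8.2 in small intestine tuft libraries, against 22.5 to 25.8 in non-tuft libraries. Of its genes 4 rose in thymus and 2 in trachea, 2 rose and 1 fell in gall bladder, 1 rose and 3 fell in small intestine, and 0 were called in colon. Its part in the Spib level was not tested. The nearest relatives of Spib stayed low: Spi1, the myeloid relative, averaged 4.89 CPM and Spic 1.95 CPM in thymus tuft cells, where both rose, and Spi1 averaged at most 0.314 CPM in the other tuft groups.

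Hmx3 and Hmx2 are homeobox genes known from inner ear and nervous system development. They are neighbours at chr7:131542867-131544925 and chr7:131548773-131558014, both on the plus strand with 3847 bases between them. Their RefSeq promoters, chr7:131542713-131543012 for Hmx3 and chr7:131548507-131548806 for the first of the Hmx2 starts listed, are shown because both neighbours were high in tuft cells. Capitals mark TGATTT, the letters AAATCA on the other strand.
Hmx3: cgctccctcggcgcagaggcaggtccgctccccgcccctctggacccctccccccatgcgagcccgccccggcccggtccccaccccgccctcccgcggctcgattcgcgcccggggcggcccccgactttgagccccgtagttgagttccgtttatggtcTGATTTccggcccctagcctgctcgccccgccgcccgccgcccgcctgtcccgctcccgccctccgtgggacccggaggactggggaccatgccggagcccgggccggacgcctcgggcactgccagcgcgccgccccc
Hmx2: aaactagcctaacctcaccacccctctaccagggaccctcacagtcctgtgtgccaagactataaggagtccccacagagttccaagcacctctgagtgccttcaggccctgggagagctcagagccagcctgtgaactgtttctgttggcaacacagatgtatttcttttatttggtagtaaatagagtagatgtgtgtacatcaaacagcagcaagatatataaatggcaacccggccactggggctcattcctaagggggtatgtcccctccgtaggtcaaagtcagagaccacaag
The Hmx3 window holds these letters 89 bases before the start, and the Hmx2 window does not hold them. Both genes overlap the span of Fgfr2 on the opposite strand, and overlap of exons was not examined. None of the sources used here says whether strand was used in counting, so any part of Fgfr2 reads in the Hmx counts was not tested. Fgfr2 averaged 97.7 CPM in small intestine, 51.1 in colon, 61.7 in gall bladder, 18.1 in thymus and 34 in trachea tuft cells, against 61.9 CPM in non-tuft cells. In the same non-tuft cells Hmx2 averaged 0.607 CPM and Hmx3 0.756 CPM.

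Hmx2 (ENSMUSG00000050100) had 88.1, 63.8 and 113 CPM in gall bladder tuft libraries and 80.7, 57.9 and 58.8 CPM in small intestine tuft libraries. Colon tuft libraries had 13.3, 27.1, 19.5 and 21.4 CPM, and thymus tuft libraries were lowest at 5.1, 8.29, 10.2 and 3.09 CPM. Trachea tuft libraries had 16.5, 132, 11.6 and 20.8 CPM, so that library 2 stood apart from the other 3. Non-tuft libraries had 0.521, 0.673 and 0.627 CPM, below each tuft library. The log2 fold change over non-tuft cells was 6.82 ± 0.23 in small intestine, 5.06 ± 0.78 in colon, 7.18 ± 0.87 in gall bladder, 3.45 ± 0.72 in thymus and 6.22 ± 0.83 in trachea, each called, with the largest adjusted p 0.00115.

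The place of trachea in the Hmx2 order rested on library 2, a male pool and the trachea library with the most cells sorted, 453. Trachea over small intestine was -0.56 ± 0.63 on the log2 scale (adjusted p = 0.536) with all libraries, and -1.96 (adjusted p = 0.0048) without library 2. Trachea over gall bladder was -0.98 ± 0.63 (adjusted p = 0.271) with it, and -2.38 (adjusted p = 0.00165) without it. Thymus over small intestine was -3.18 ± 0.66, thymus over gall bladder -3.60 ± 0.67 and trachea over thymus 2.61 ± 0.63, each called. Gall bladder over colon was 2.13 ± 0.64 (adjusted p = 0.0257), a call lost without colon library 1, 3 or 4 or gall bladder library 1 or 4, at adjusted p 0.053 to 0.0817.

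Hmx3 (ENSMUSG00000040148) had 109, 38.7 and 187 CPM in gall bladder tuft libraries and 109.8, 126, 46.6 and 79.1 CPM in trachea tuft libraries. Small intestine tuft libraries had 36, 72.2 and 62.2 CPM, and thymus tuft libraries had 39.7, 26.2, 40.0 and 35.6 CPM. Colon tuft libraries were lowest and close together at 22.6, 24, 23.6 and 23.4 CPM. Non-tuft libraries had 0.898, 0.918 and 0.452 CPM, below each tuft library. Relative to non-tuft cells, the log2 fold change was 6.32 ± 0.38 in small intestine, 4.95 ± 0.54 in colon, 7.21 ± 0.61 in gall bladder, 5.55 ± 0.56 in thymus and 6.90 ± 0.59 in trachea, each called, with the largest adjusted p 1.59e-06. Gall bladder over colon was 2.25 ± 0.43 and trachea over colon 1.97 ± 0.41, both called. Trachea over thymus was 1.23 ± 0.40 (adjusted p = 0.0273), a call lost without trachea library 1 or 2 or thymus library 2 or 4, at adjusted p 0.0513 to 0.0686. Thymus over gall bladder was -1.50 ± 0.43 (adjusted p = 0.013), a call lost without gall bladder library 4 (adjusted p = 0.101).

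Per kilobase, the balance of the neighbours differed between tissues. The ratio of Hmx3 to Hmx2 levels was 6.98 to 25.4 in thymus tuft libraries and 2.1 to 14.7 in trachea, with the 2.1 in library 2. It was 0.984 to 2.75 in small intestine, 1.96 to 3.75 in colon and 1.34 to 3.64 in gall bladder tuft libraries, against 1.59 to 3.81 in non-tuft libraries. Thymus libraries did not overlap with those of the gut and gall bladder in this ratio, which was not tested.

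Glis1 (ENSMUSG00000034762, chr4:107434591-107635061, plus strand), a zinc finger factor of the GLI-similar family, was present in digestive tract tuft cells and near 0 in the others. Gall bladder tuft libraries had 2.81, 56.2 and 46.5 CPM, and small intestine tuft libraries had 36.1, 36.7 and 29.8 CPM. Colon tuft libraries had 1.78, 17.7, 4.24 and 5.17 CPM. Thymus tuft libraries had 0.0481, 0.203, 0.338 and 0.0932 CPM, and trachea tuft libraries had 0.365, 0.235, 0.0309 and 0.0706 CPM, from 1 to 24 counts each. Non-tuft libraries had 0.377, 0.163 and 0.0729 CPM, which overlapped with thymus and trachea and lay below all gut and gall bladder tuft libraries. Over non-tuft cells the log2 fold change was 7.46 ± 0.44 in small intestine, 5.13 ± 1.16 in colon and 7.41 ± 1.30 in gall bladder, each called, with the largest adjusted p 0.00566. In thymus it was -0.24 ± 0.96 (adjusted p = 0.881) and in trachea -0.18 ± 0.98 (adjusted p = 0.913), and SEs of this size do not show equality.

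Each of the 6 pairs of thymus or trachea with a gut or gall bladder group was called for Glis1. Trachea over small intestine was -7.57 ± 1.17, trachea over gall bladder -7.61 ± 1.17 and trachea over colon -5.30 ± 1.04 on the log2 scale. Thymus over small intestine was -7.50 ± 1.16, thymus over gall bladder -7.53 ± 1.16 and thymus over colon -5.23 ± 1.03. Colon over small intestine was -2.27 ± 0.93 and was not called (adjusted p = 0.156), although the libraries did not overlap and limma voom called it (adjusted p = 3.52e-04). The paralog Glis3 had another order. It averaged 306 CPM in gall bladder, 222 in trachea and 84.6 in thymus tuft cells, where it rose by 3.60 ± 0.38, 3.13 ± 0.36 and 1.74 ± 0.34 on the log2 scale, against 25.3 CPM in non-tuft cells. In small intestine tuft cells Glis3 averaged 7.03 CPM and fell by 1.78 ± 0.25.

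Atoh1 (ENSMUSG00000073043, chr6:64729125-64731245, plus strand) encodes the basic helix-loop-helix factor of intestinal secretory cells. Colon tuft libraries had 28.8, 31.3, 12.5 and 16.2 CPM, and small intestine tuft libraries had 4.06, 4.65 and 4.79 CPM. Thymus tuft libraries had 1.86, 1.45, 0.86 and 0.0373 CPM. Gall bladder tuft libraries had 0.911, 0 and 0.209 CPM, and trachea tuft libraries had 0.393, 0.0471, 0.0618 and 0.0706 CPM, from 2 to 14 counts each. Non-tuft libraries had 106, 132 and 198 CPM, above each tuft library. Relative to non-tuft cells, the log2 fold change was -4.95 ± 0.25 in small intestine, -8.56 ± 1.31 in gall bladder, -7.10 ± 1.07 in thymus and -9.98 ± 1.22 in trachea, each called, with the largest adjusted p 4.33e-05. In colon it was -2.71 ± 0.89 and missed the threshold (adjusted p = 0.0693). DESeq2 (adjusted p = 0.019), limma voom (adjusted p = 4.40e-07), a filter at 5 CPM in 3 libraries (adjusted p = 0.048) and a fit of the 2 groups alone (adjusted p = 1.39e-04) called it lower in colon.

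Colon tuft cells had the highest Atoh1 of the tuft groups. Colon over small intestine was 2.28 ± 1.24 on the log2 scale and was not called (adjusted p = 0.313), although the libraries did not overlap and limma voom called it (adjusted p = 0.00101). Trachea over colon was -7.24 ± 1.40, gall bladder over colon -5.84 ± 1.49 and thymus over colon -4.24 ± 1.21, each called. Trachea over small intestine was -4.96 ± 1.29, called, but not without the 2 female pools (adjusted p = 0.0599).

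Markers of secretory cells were lower in each tuft library than in non-tuft libraries, as Atoh1 and Gfi1 were. Among tuft tissues the goblet sum was highest in colon, as the Atoh1 and Gfi1 means were. The Paneth and enteroendocrine sums were not highest there. Within the goblet list, Muc2 (mean 5310 CPM), Agr2 (1040) and Clca1 (437) were highest in colon. Tff3 and Zg16 were higher in small intestine tuft cells, at 337 and 460 CPM against 136 and 208 in colon. Fcgbp was highest in thymus, at 1640 CPM against 248 in colon. The summed level of 6 goblet markers was 6570 to 9120 CPM in colon, 2100 to 2600 in small intestine, 1540 to 2640 in thymus, 284 to 1130 in trachea and 160 to 602 in gall bladder tuft libraries, against 103000 to 113000 CPM in non-tuft libraries. All 6 fell in small intestine, gall bladder, thymus and trachea tuft cells, and 4 of 6 in colon. Enteroendocrine markers summed to 340 to 874 CPM in small intestine tuft libraries and 149 to 301 in colon. In thymus they were at 113 to 219 CPM, in gall bladder at 6.84 to 31 and in trachea at 3.62 to 40.2. Non-tuft libraries had 8860 to 12500 CPM. Paneth markers summed to 90.9 to 361 CPM in small intestine, 14 to 54.5 in colon and 158 to 328 in thymus. They were at 118 to 153 CPM in gall bladder and 6.67 to 151 in trachea, against 7710 to 9180 in non-tuft libraries. The part of these secretory markers in the Atoh1 and Gfi1 levels was not tested.

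Other secretory lineage factors fell more often than they rose in each tissue. Of 16 genes, 10 fell and 1 rose in small intestine tuft cells, 6 fell and 1 rose in colon, 10 fell and 3 rose in gall bladder, 7 fell and 2 rose in thymus, and 6 fell and 3 rose in trachea. Their median log2 fold change was -2.72 in small intestine, -1.62 in colon, -3.78 in gall bladder, -2.50 in thymus and -1.18 in trachea. Among all genes, 13.9% fell in small intestine, 3.27% in colon, 13.5% in gall bladder, 10.3% in thymus and 17.2% in trachea. Neurog3 and Neurod1, which drive the enteroendocrine branch, fell in all 5 tissues, and Neurod1 averaged 4.65 CPM in small intestine and at most 1.2 in the other tuft groups, against 63.5 CPM in non-tuft cells. Insm1, another enteroendocrine factor, fell in 4 tissues and averaged 24.4 CPM in thymus tuft cells, against 7.24 in non-tuft cells, and its log2 fold change of 1.75 ± 0.88 in thymus was not called. Spdef, a goblet and Paneth factor, fell in each tissue except trachea, and Foxa3, a goblet factor, in each except colon. Limma voom and the 2-group fit called 12 and 11 of these genes in colon in place of 7, and the fit of all libraries called 5 in small intestine in place of 11.

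Runx1, a blood cell factor placed in the same list, rose in all 5 tissues, with a log2 fold change of 4.39 ± 0.15 in small intestine, 3.23 ± 0.26 in colon, 4.09 ± 0.27 in gall bladder, 4.40 ± 0.27 in thymus and 5.68 ± 0.29 in trachea. It averaged 385 ± 57.9 CPM in trachea and 70.3 ± 10.1 in colon tuft cells (SD, n = 4 each), against 7.52 ± 0.88 CPM in non-tuft cells (SD, n = 3). Etv1 fell in small intestine and colon tuft cells and rose in gall bladder and trachea, where it averaged 247 CPM, against 10.6 CPM in non-tuft cells. Foxa1 fell by 6.07 ± 0.73 in gall bladder and rose by 2.96 ± 0.60 in trachea on the log2 scale.

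Notch pathway genes, which act above Atoh1 in the intestine, differed in direction between tissues. Of 11 tested, 1 rose and 4 fell in small intestine tuft cells, 2 rose in gall bladder, 5 rose and 2 fell in thymus, and 4 rose and 3 fell in trachea. In colon edgeR called 0, with 3 at an unadjusted p under 0.05, whereas DESeq2 called 2, limma voom 4 and the 2-group fit 5. Over all genes, 13% rose and 13.9% fell in small intestine, and 12.4% rose and 13.5% fell in gall bladder. The shares were 17.2% and 10.3% in thymus, 14% and 17.2% in trachea, and 4.4% and 3.27% in colon. Jag2, a ligand, rose by 4.66 ± 0.60 in gall bladder, 4.30 ± 0.58 in trachea, 3.08 ± 0.54 in thymus and 1.31 ± 0.46 in small intestine on the log2 scale. Hes1, a target that represses Atoh1, fell by 1.66 ± 0.12 in small intestine and 1.56 ± 0.39 in thymus. Notch3, a receptor, and Hey1, a target, rose in thymus and trachea. The gall bladder count was 1 without any single non-tuft library or without gall bladder library 1 or 4, and the small intestine count was 3 in place of 5 without tuft library 4 and 1 in the fit of all libraries. The gall bladder count was also 1 with no filter.

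**Figure D4:**
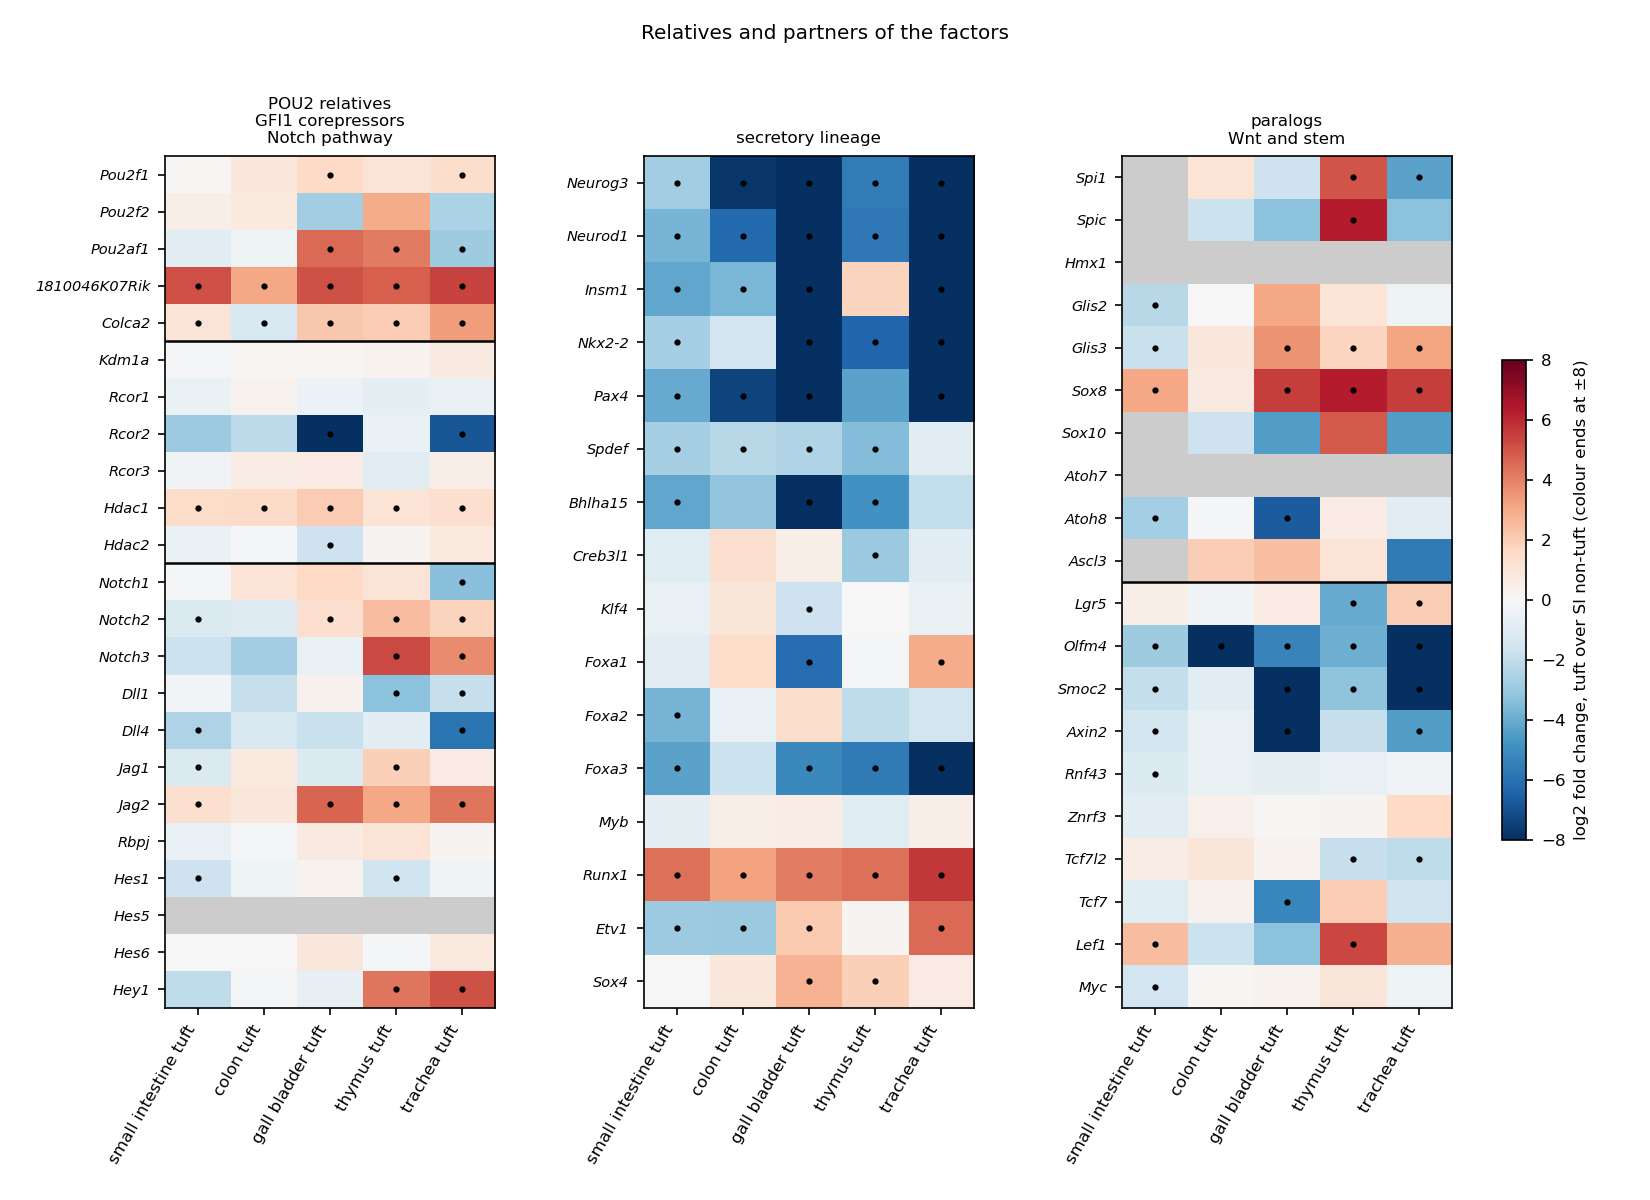
Log2 fold change of genes of the 6 lists, tuft cells of each tissue over small intestine non-tuft cells, coloured with ends at ±8, with a black dot on called values and grey for genes not tested. Hdac1, Runx1 and 1810046K07Rik were called higher in all 5 columns, and Neurog3, Neurod1 and Olfm4 lower in all 5.

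Sox9 (ENSMUSG00000000567, chr11:112782224-112787760, plus strand) was the most even of the 10 factors over tuft tissues. Gall bladder tuft libraries had 918, 770.0 and 1354 CPM, and trachea tuft libraries had 602, 1055, 467 and 652 CPM. Small intestine tuft libraries had 588, 622 and 656 CPM, and thymus tuft libraries had 491, 606, 538 and 598 CPM. Colon tuft libraries were lowest at 432, 352, 374 and 399.6 CPM. Non-tuft libraries had 105, 125 and 133 CPM, below each tuft library. Over non-tuft cells the log2 fold change was 2.42 ± 0.14 in small intestine, 1.69 ± 0.25 in colon, 3.07 ± 0.28 in gall bladder, 2.21 ± 0.26 in thymus and 2.52 ± 0.26 in trachea, each called, with the largest adjusted p 7.38e-05. The single pair called was gall bladder over colon, at 1.39 ± 0.23 (adjusted p = 3.26e-04). Thymus over colon was 0.66 ± 0.22 (adjusted p = 0.0299), under the fold limit without overlap of libraries. Its paralog Sox8 rose in small intestine, gall bladder, thymus and trachea tuft cells, at means of 3.93, 22.6, 37.6 and 22.2 CPM, against 0.485 CPM in non-tuft cells.

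Ascl2 (ENSMUSG00000009248, chr7:142966829-142969264, minus strand) had a single edgeR call against non-tuft cells. Trachea tuft libraries had 39, 27, 58.2 and 23.3 CPM, and gall bladder tuft libraries had 5.52, 27.1 and 22.5 CPM. Small intestine tuft libraries had 10.9, 9.25 and 3.54 CPM, and thymus tuft libraries had 5.57, 9.76, 8.23 and 7.75 CPM. Colon tuft libraries had 3.05, 6.77, 10.7 and 9.26 CPM. Non-tuft libraries had 19, 14.9 and 17.8 CPM, below the trachea libraries, above those of small intestine, thymus and colon, and within the gall bladder range. The log2 fold change in small intestine was -1.07 ± 0.36 (adjusted p = 0.0337). That call was lost without any single non-tuft library (adjusted p 0.0541 to 0.105), and the change was -0.72, under 2-fold, without tuft library 4. In the fit of all 21 libraries the small intestine difference was not called (adjusted p = 0.368). In colon it was -1.21 ± 0.58 (adjusted p = 0.273), in gall bladder 0.09 ± 0.62 (0.939), in thymus -1.14 ± 0.58 (0.149) and in trachea 1.10 ± 0.60 (0.164). Limma voom and the 2-group fit called it lower in colon (adjusted p = 0.0118 and 0.038) and in thymus (0.0218 and 0.0132).

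Trachea had the highest Ascl2 mean of the tuft tissues. Its difference over gall bladder was 1.02 ± 0.65 on the log2 scale (adjusted p = 0.262) and was not called, with overlapping libraries. Trachea over colon was 2.33 ± 0.61 on the log2 scale and trachea over thymus 2.12 ± 0.61, both called. Trachea over small intestine was 2.23 ± 0.68 (adjusted p = 0.0192), a call lost without small intestine library 3 or 4 or the 2 female pools, at adjusted p 0.0523 to 0.0912.

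Of a list of other close paralogs of the factors, which leaves out the POU2 relatives, 1 of 5 tested rose and 3 fell in small intestine tuft cells. Of 9 tested in the other tissues, 2 rose and 1 fell in gall bladder, 5 rose in thymus, and 3 rose and 1 fell in trachea. In colon 0 were called by edgeR, DESeq2 and limma voom, with 1 at an unadjusted p under 0.05. Without non-tuft library 2 or 3 the count called was 2 in small intestine and 3 in thymus. In small intestine it was 1 with the filter at 5 CPM and in the fit of all libraries, and in thymus it was 3 with that filter. The share of all genes called was 26.9% in small intestine, 7.67% in colon and 26% in gall bladder. It was 27.5% in thymus and 31.2% in trachea.

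Wnt and stem cell genes that accompany Ascl2 and Sox9 at the crypt base were called lower more often than higher in small intestine, gall bladder, thymus and trachea tuft cells. Of 10 genes, 5 fell and 1 rose in small intestine tuft cells, 1 fell in colon, where 3.27% of all genes were called lower, 4 fell in gall bladder, and 4 fell and 1 rose in both thymus and trachea. Elsewhere the share of all genes called lower was 13.9% in small intestine, 13.5% in gall bladder, 10.3% in thymus and 17.2% in trachea. Olfm4, a stem cell marker, fell in all 5 tissues and averaged 82.3 CPM in small intestine tuft cells, against 612 CPM in non-tuft cells. Lgr5, the stem cell receptor, went its own way: trachea tuft libraries had 153, 179.7, 184 and 141 CPM and thymus tuft libraries 1.76, 2.65, 2.3 and 3.22 CPM, against 47.9, 33.4 and 42.3 CPM in non-tuft libraries. Its log2 fold change was 2.00 ± 0.35 in trachea and -4.05 ± 0.36 in thymus, both called. Axin2, a Wnt target, fell by 1.49 ± 0.20 in small intestine, 9.33 ± 1.69 in gall bladder and 4.46 ± 1.18 in trachea. In the fit of all libraries 2 of the list, in place of 6, were called in small intestine.

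Within a tissue, levels per kilobase ranked the factors. In small intestine tuft cells Spib was followed by Pou2f3 at 208 ± 30.2 CPM per kb, Gfi1b at 160.5 ± 12.4 and Sox9 at 150.4 ± 8.26 (SD, n = 3). In trachea Pou2f3 was at 348 ± 86.9 CPM per kb and Sox9 at 168 ± 61.2, whereas Gfi1b was at 20.0 ± 14.2 (SD, n = 4). In gall bladder Sox9 was at 245 ± 73.5, Gfi1b at 172 ± 43 and Pou2f3 at 117 ± 38.7 CPM per kb (SD, n = 3). In non-tuft cells Atoh1 was at 68.4 ± 22.3 and Sox9 at 29.2 ± 3.5 CPM per kb, above the other 8 (SD, n = 3).

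Genes with the most similar pattern were sought among 9736 protein-coding genes, by the root mean square difference of centred log2 group means over the 6 groups, as a description with no test. For Pou2f3 they were Lrmp (0.399), Runx1 (0.407) and Il25 (0.422), the gene whose reporter was sorted. For Gfi1b they were Strip2 (0.352), Plcg2 (0.501) and Ly6g6f (0.504), and for Spib they were Bmx (0.199), Sptb (0.24) and Kcnd3 (0.41). Hmx2 had Cd300lf (0.366) and Adora1 (0.368) nearest, and Hmx3 had Pnpla3 (0.255) and the tuft marker Dclk1 (0.312). Glis1 was nearest to Cabp1 (0.171), Sox9 to Arhgap8 (0.121), Atoh1 to Tpsg1 (0.51), Ascl2 to Nek4 (0.25) and Gfi1 to Rnase4 (0.414). Among the factors themselves the smallest differences were 0.589 between Pou2f3 and Spib and 0.606 between Spib and Hmx3, while the neighbours Hmx2 and Hmx3 differed by 0.834.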

How the data were processed

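The deposited files hold raw counts per Ensembl gene for each of 21 libraries. Per the labels' protocols, poly(A) RNA was amplified with NuGEN Ovation V2 and made into Nextera XT libraries, and libraries that failed quality control were discarded. Reads were processed with STAR, DESeq2 and the GRCm38 build, per the submitters' processing notes. For the counting tool, its strand setting and the gene annotation the sources used here give no name. Amplification without molecular identifiers means that counts are not independent molecules.

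Identifiers were matched to GENCODE symbols, 42548 of 43432. Genes passing filterByExpr were tested on these counts with edgeR 4.0.16 (quasi-likelihood, TMM, Benjamini-Hochberg adjustment): small intestine tuft against non-tuft cells on 6 libraries, the other 4 tissues against non-tuft cells on all 21, and tuft tissues against each other on the 18 tuft libraries. DESeq2 1.42.0, limma 3.58.1 voom with sample weights, RLE size factors, other filters, other sample sets and leaving out each library were alternatives. Levels per kilobase use the exon length of the annotation.

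The 10 factors, the 6 pathway lists and the 13 marker lists were chosen with earlier results of these data known. All 10 factors and any list gene may be named; similar genes are the 3 nearest per factor that reach a mean of 20 CPM in a group, on log2(CPM + 0.5). Gene lists that hold Ccl21a leave it out, since more than 1 identifier carries that symbol. Replicate numbers were not used as pairs in the main fits. Promoters are from RefSeq, GRCm38.p6. Some list genes are not reported here by name, though counts over their lists include them.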

Additional observations from a re-analysis of the deposited data

Results flagged for a closer look

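In 29 groups of 4 or more libraries with a spread of values, a single library stood far from the rest for 2 of the 10 factors. Chance alone flags about 1 in 20 groups, and 2 of 29 is close to that share. Hmx2 was at 132.4 CPM in trachea tuft library 2, and the gap to the nearest of the other 3 libraries was 0.924 of the whole range. Atoh1 was at 0.393 CPM in trachea tuft library 1, from 14 counts, with a gap of 0.932 of the range. Airway markers summed to 62700 CPM in that library, against 10200 to 20900 CPM in the other 3, and their part in the Atoh1 level was not tested.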

How the results depend on the processing

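The number of the 10 factors called against non-tuft cells was 10 in small intestine (8 to 10 over the alternatives), 7 in colon (7 to 10), 9 in gall bladder (9 in each), 8 in thymus (7 to 9) and 8 in trachea (8 in each). Leaving out 1 library gave 9 to 10, 7, 9, 7 to 8 and 8 in the same order. All 10 factors differed among tuft tissues, and 9 did with the filter at 5 CPM, which leaves Gfi1 untested. The pairs of tissues called were 44, with 38 to 48 over the alternatives and 41 to 46 with 1 library left out. Replicate numbers were not used as pairs. Same-numbered libraries deviated with a mean correlation of 0.008 over 45 pairs, against -0.003 over 138 other pairs. A correlation above 0.1 was seen in 1 same-numbered pair and 0 others. Such correlations over all genes cannot exclude that same-numbered libraries share a mouse or a day. With the replicate block 9 factors were called in small intestine, where Ascl2 was lost, and 46 pairs, among them Hmx2 in trachea below gall bladder (-1.79, adjusted p = 0.0486), and the gall bladder count of Notch genes was 1 in place of 2. No factor reversed. Against non-tuft cells 668 recomputed results kept their call, 9 gained one and 13 lost one. Over all genes the 4327 calls in small intestine were 2866 with the filter at 5 CPM and 1324 in the fit of all libraries. The 1559 in colon were 4603 with limma voom, 3405 with the 2 groups alone and 1017 to 1038 without a non-tuft library. The 5585 in thymus were 9609 with limma voom and 3562 to 3709 without a non-tuft library. In thymus the median log2 fold change of all genes was 0.22 with TMM and 0.44 with RLE, so small changes there depend on scaling. Of 414 recomputed list counts 53 moved by over 1.5 times. Factors at or near 0 counts are limited by depth.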
